A study of Solanum lycopersicum with 12 samples.

Results

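Gibberellin 20-oxidases and 3-oxidases were followed in the roots and the leaves of tomato (Solanum lycopersicum), treated or not treated with cadmium (Cd), a toxic heavy metal. The members are 4 genes, 20ox-2, 20ox-3, 3OH-2 and GA3ox1, chosen by their symbol in the array's probe-to-gene table, and each had 1 probe set, so 4 of the 10038 probe sets tested and 4 of the 803 genes with a symbol are described here. 20ox-2 and 20ox-3 encode 20-oxidases, and 3OH-2 and GA3ox1, which the current gene table also lists as 3OH-1, encode 3-oxidases. The array carried a further 20-oxidase, GA20OX1 (synonym 20ox-1), which is not a member and is given beside the others.

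Total RNA of each sample was labelled and read on its own single-channel Affymetrix array, 12 in all. The titles define 4 groups of 3 arrays: roots with Cd (root-Cd), roots without Cd (root-ck), leaves titled as Cd-treated (leaf-Cd) and leaves without Cd (leaf-ck). The source label of the 3 leaf-Cd samples reads as untreated, so the leaf comparison rests on the titles alone, and this holds for each leaf-Cd value below. Cultivar, plant age, Cd dose and exposure time are not given in the sources used here, nor is whether the 3 samples of a group came from separate plants, so the p-values speak only of the spread among these samples, and that spread may be technical.

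Gibberellins are diterpenoid hormones that promote stem elongation, leaf expansion, flowering and germination. After early steps in the plastid and at membranes, soluble dioxygenases that need iron and 2-oxoglutarate finish the synthesis: 20-oxidases carry inactive precursors through several oxidations in turn, and 3-oxidases add the hydroxyl group that makes the bioactive hormone. Active hormone binds the receptor GID1 and leads to the breakdown of DELLA repressors. In many plants, genes of both oxidase families are repressed by active gibberellin and induced when it is scarce.

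Values are log2 expression as the authors deposited them, and ± is the SD over the 3 arrays of a group. A difference passed where its p-value from limma, a linear model with variances moderated over all probe sets, was under 0.05 after adjustment over the 10038 probe sets. Array medians lay between 7.46 and 7.50 in root and between 6.85 and 6.89 in leaf, so differences between the organs are also given less the difference of the medians. The brightest of the 23 negative controls of an array set its background, which was 3.13 to 3.57 in root and 2.69 to 3.01 in leaf. The 63 probe sets for foreign reporter genes reached higher, up to 4.18 to 4.82 in root and 3.16 to 3.67 in leaf. Without Cd, as deposited, 7 of 8 root marker genes passed as higher in root than in leaf, against 61.0% of all probe sets, and FRO1 as lower. Less the array medians, AMT1-2, LKT1 and PT1 averaged 1.35, -2.29 and 3.21 in root, against 1.04, -2.56 and 2.95 in leaf. Most of their deposited difference was thus the difference of the medians. As deposited, 6 of 8 green-tissue markers passed as lower in root, against 9.95% of all, and no green-tissue marker was at background in roots.

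**Figure D1:**
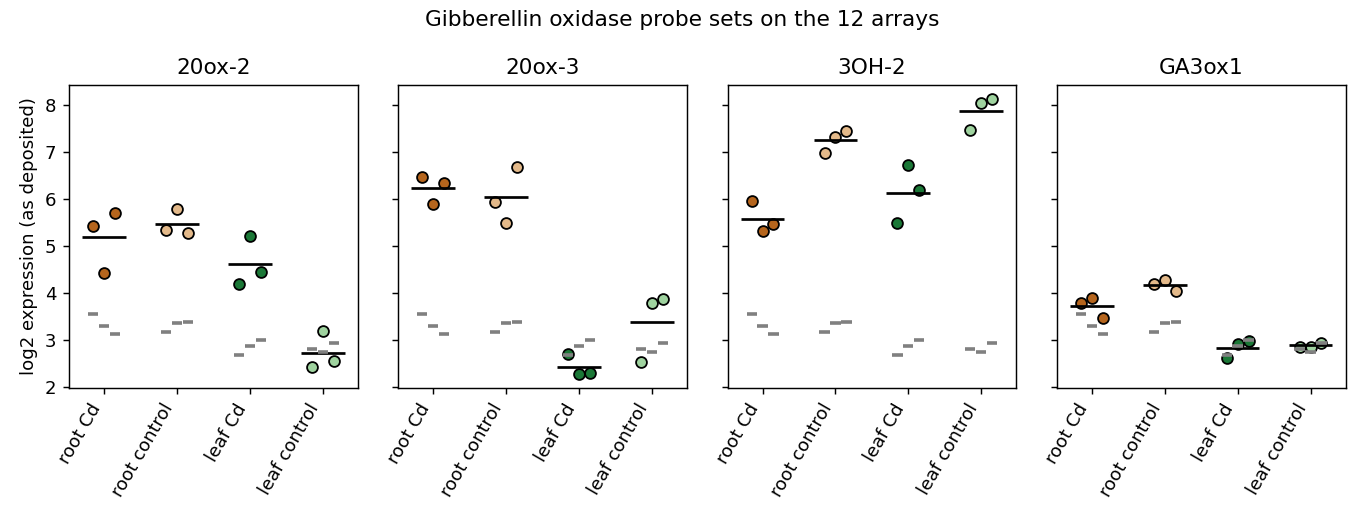
Log2 expression (y axis) of the 4 members on each array, by group (x axis); points are arrays, black bars group means, and grey bars the highest negative control of that array. 3OH-2 is lower in both Cd groups than in their controls, 20ox-2 is higher in leaf Cd than in leaf control, 20ox-3 is above 5 only in roots, and GA3ox1 is near background in leaves.

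Among the 20-oxidases, 20ox-2 was higher in the leaves titled as Cd-treated than in control leaves. Its probe set read 4.20, 5.23 and 4.45 on the leaf-Cd arrays, against 2.42, 3.19 and 2.57 on the leaf-ck arrays. The groups did not overlap, and 1 of the 3 control arrays was above background. The means were 4.63 ± 0.53 in leaf Cd and 2.73 ± 0.41 in leaf control (n = 3 each), a rise of 1.90 on the log2 scale (95% interval 1.11 to 2.69, 3.74-fold, limma adjusted p = 0.0174). With arrays under background set to background, the means were 4.63 in leaf Cd and 2.98 in leaf control, a difference of 1.64 or 3.13-fold. In leaf 20ox-2 stood at rank 35 of the 5340 probe sets that were higher with Cd. Across all probe sets 3.78% passed the threshold in leaf, 2.23% higher and 1.54% lower, a balance that turned with the replicate block (165 higher, 211 lower), and the groups were apart with leaf Cd higher in 13.8%. Of the 6119 probe sets that passed as higher in root than in leaf without Cd, as 20ox-2 did, 2.89% rose in leaf. In whole-organ samples a change in the number of cells of a type and in the RNA of each cell cannot be told apart. The call was lost with the 6 leaf arrays fitted alone (adjusted p = 0.0667), with the unmoderated linear model (0.0549) and without leaf-ck 3 (0.0632).

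No such difference was called for 20ox-2 in roots. It read 5.43, 4.44 and 5.71 with Cd, against 5.34, 5.80 and 5.29 without, and the groups overlapped. The difference was -0.28 (95% interval -1.07 to 0.51, adjusted p = 0.786), and its sign rested on root-Cd 2, without which it was 0.093. The root response less the leaf response was -2.19 (95% interval -3.30 to -1.07), with an unadjusted p of 0.00126 and an adjusted p of 0.0740, so a difference between the organs' responses did not pass, against 0.757% of all probe sets that did. With array weights it passed (-1.93, adjusted p = 0.0252).

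20ox-3 was well above background in roots and near it in leaves. It read 6.47, 5.90 and 6.35 in roots with Cd, against 5.94, 5.50 and 6.68 in roots without. These groups overlapped, and the difference of 0.20 (95% interval -0.62 to 1.03, adjusted p = 0.874) did not pass and was -0.072 without root-ck 2. In leaves it read 2.71, 2.28 and 2.31 with Cd, against 2.53, 3.79 and 3.87 without. Only 1 leaf-Cd array was above background, narrowly, and leaf-ck 1 was as low as the Cd arrays, while leaf-ck 2 and leaf-ck 3 stood clear of background. The leaf difference was -0.97 (95% interval -1.79 to -0.14, adjusted p = 0.188), and -0.63 with arrays under background set to background. Without leaf-ck 1 it was -1.40 and passed (adjusted p = 0.0446), or -0.97 with arrays under background set to background.

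GA20OX1, which also encodes a 20-oxidase, read lower with Cd on all arrays of both organs without passing the threshold. Groups lay apart with Cd lower in 13.9% of all probe sets in root and in 7.86% in leaf. In roots it read 4.29, 3.65 and 3.13 with Cd, against 4.88, 4.92 and 5.08 without, a difference of -1.27 (95% interval -2.71 to 0.17, adjusted p = 0.367). In leaves it read 3.19, 5.66 and 6.48 with Cd, against 7.74, 7.71 and 7.11 without. The leaf-Cd arrays were spread over more than 3 log2 units, with leaf-Cd 1 far below the others. The leaf difference was -2.41 (95% interval -3.85 to -0.97, adjusted p = 0.0709), and it passed without leaf-Cd 3 (-3.10, adjusted p = 0.0190) and with array weights (-2.84, adjusted p = 0.0195). Without leaf-Cd 1 it was -1.45 (adjusted p = 0.0614), and adjusted p-values with 1 array left out reached 0.220. In leaf, GA20OX1 and 20ox-2 lay on opposite sides of their controls. The root response of GA20OX1 less its leaf response was 1.14 (adjusted p = 0.576).

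Of the 3-oxidases, 3OH-2 was lower with Cd in both organs. In roots it read 5.97, 5.32 and 5.46 with Cd, against 6.98, 7.31 and 7.46 without. In leaves it read 5.50, 6.72 and 6.20 with Cd, against 7.48, 8.04 and 8.14 without. The groups did not overlap in either organ, and all 12 values lay above background and above the brightest reporter probe set. The root means were 5.58 ± 0.34 with Cd and 7.25 ± 0.25 without (n = 3 each), and the transcript fell by 1.67 on the log2 scale (difference -1.67, 95% interval -2.34 to -0.997, 3.17-fold lower, adjusted p = 0.0159). The leaf means were 6.14 ± 0.61 with Cd and 7.89 ± 0.36 without (n = 3 each), with a difference of -1.74 (95% interval -2.41 to -1.08, 3.35-fold lower, adjusted p = 0.0119).

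The sizes in the organs were close for 3OH-2. The root response less the leaf response was 0.08, with a 95% interval of -0.87 to 1.03, and an interval this wide does not show that the responses were alike. Its sign turned without root-Cd 1 (-0.11), root-ck 1 (-0.057), leaf-Cd 1 (-0.24) or leaf-ck 3 (-0.048). 3OH-2 ranked 82 of 4650 probe sets lower with Cd in root and 92 of 4698 in leaf. In root 3.03% of all probe sets passed, 1.07% higher and 1.96% lower (107 and 197 probe sets, but 108 and 94 with the root arrays alone and 1873 and 1872 with array weights), and the groups were apart with Cd lower in 13.9% (7.86% in leaf). Probe sets that passed as lower in both organs numbered 27, or 0.269% of those tested, 13.7% of the root falls and 17.4% of the leaf falls. Of these, 7 are genes with a symbol: 3OH-2, CIP1, CO1, HY5, LCY1, PSY2 and SODCP.2.

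The root call of 3OH-2 was lost without root-Cd 2 (adjusted p = 0.0621), without root-ck 3 (0.0683) and with the unmoderated linear model (0.0640), and the leaf call without leaf-ck 2 (0.0575) and with the leaf arrays alone (0.0891). The summed level of the 8 green-tissue markers was also lower with Cd in both organs. On the log2 scale it was 13.43 to 13.99 in root Cd, against 14.10 to 15.02 in root control, and 14.81 to 15.05 in leaf Cd, against 15.12 to 15.24 in leaf control. PSBR went the other way in leaf, at 12.66 to 12.77 with Cd against 12.58 to 12.63 without, while the other green markers averaged lower with Cd. In root all 8 had an unadjusted p under 0.05 and CAB4 passed as lower, while in leaf 0 of the 8 passed in limma or the unmoderated model and 0 had an unadjusted p under 0.05. The 8 root markers summed to 12.53 to 12.67 in root Cd, against 11.97 to 12.21 in root control. Of them, ext1 and FER passed as higher, and PT1, PT2 and RSI-1 were higher without passing. AMT1-2 (-0.67, limma adjusted p = 0.0838), LKT1 (-0.51) and FRO1 (-0.39) were lower with Cd without passing, so the markers did not move as a set. The part of the root markers and of the green markers in the 3OH-2 result was not tested.

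GA3ox1 lay close to background. In roots it read 3.79, 3.90 and 3.47 with Cd, against 4.19, 4.28 and 4.04 without. The groups did not overlap, as in 13.9% of all probe sets with root Cd lower. The root arrays were above the negative controls, yet GA3ox1 exceeded the brightest reporter probe set on 0 of the 12 arrays. The difference was -0.45 (95% interval -0.77 to -0.13, adjusted p = 0.131) and did not pass, except with array weights (-0.41, adjusted p = 0.00124), a setting under which 3745 probe sets passed in root. In leaves it read 2.62, 2.93 and 2.98 with Cd, with 1 array above background, against 2.87, 2.87 and 2.95 without, a difference of -0.05 near background (95% interval -0.37 to 0.27, adjusted p = 0.900).

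**Figure D2:**
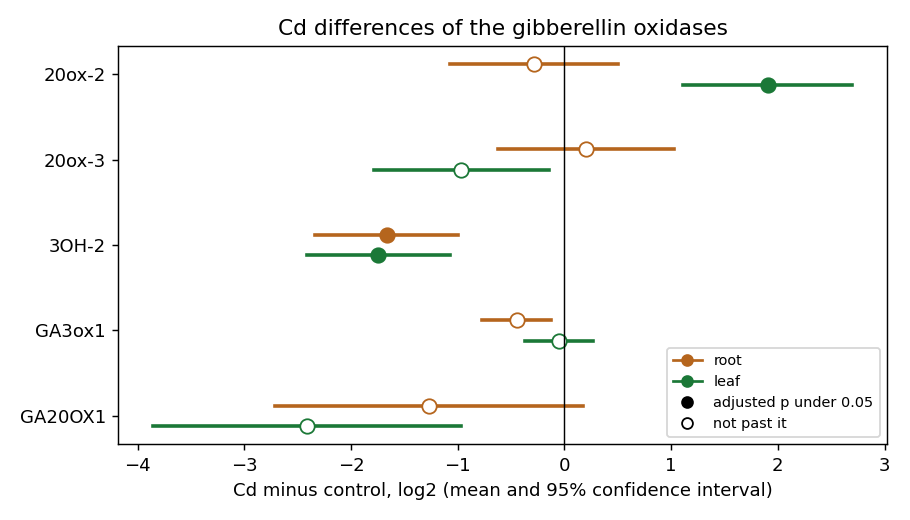
Cd minus control on the log2 scale (x axis) for the 4 members and GA20OX1 (y axis), in root and in leaf; points are differences of means of 3 arrays, bars 95% confidence intervals, and filled points passed the adjusted threshold. 3OH-2 is filled in both organs and 20ox-2 in leaf; GA20OX1 has the widest intervals.

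Root and leaf differed for the 20-oxidases in plants without Cd. Without Cd, 20ox-2 was 5.48 ± 0.28 in root and 2.73 ± 0.41 in leaf, a difference of 2.75 (95% interval 1.96 to 3.54, adjusted p = 7.65e-05), of 2.16 less the medians, and of 2.49 with arrays under background set to background. 20ox-3 was 6.04 ± 0.60 in root and 3.40 ± 0.75 in leaf, a difference of 2.64 (adjusted p = 0.000131), of 2.05 less the medians, and of 2.55 with arrays under background set to background. Of the 3 leaf controls, 1 was above background for 20ox-2 and 2 for 20ox-3. GA20OX1 ran the other way, with 4.96 ± 0.11 in root and 7.52 ± 0.36 in leaf, a difference of -2.56 (adjusted p = 0.00515) and of -3.15 less the medians. Organ differences were common, since 70.9% of all probe sets passed, 61.0% higher in root and 9.95% lower, and 3 of 4 members passing is close to that share and not a result about them. After median centring 2203 were higher and 2140 lower.

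The 3-oxidases also differed in their organ pattern. GA3ox1 was 4.17 ± 0.12 in root and 2.89 ± 0.05 in leaf without Cd, a difference of 1.28 (adjusted p = 3.39e-05) and of 0.68 less the medians. Its leaf control readings (2.87 to 2.95) lay near the background of those arrays (2.75 to 2.94), which was 3.18 to 3.39 in root control. The size of this GA3ox1 difference is thus limited by background. 3OH-2 was 7.25 ± 0.25 in root and 7.89 ± 0.36 in leaf, a difference of -0.64 (adjusted p = 0.0803). It passed after median centring (-1.23, adjusted p = 0.00810) and as deposited without leaf-ck 1 (-0.84, adjusted p = 0.0447).

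With Cd, the organ difference of 20ox-2 was small. It was 5.19 ± 0.67 in root and 4.63 ± 0.53 in leaf, a difference of 0.56 (95% interval -0.23 to 1.35, adjusted p = 0.172) that was -0.05 less the medians, so its sign depends on the scaling. Without root-Cd 2 it passed as deposited (0.94, adjusted p = 0.0256). 20ox-3 was 6.24 ± 0.30 in root and 2.43 ± 0.24 in leaf with Cd, a difference of 3.81 (adjusted p = 1.41e-05), and of 3.38 with arrays under background set to background. 3OH-2 differed by -0.56 (adjusted p = 0.118), and by -1.17 after centring, which passed (adjusted p = 0.00947). GA3ox1 differed by 0.88 (adjusted p = 0.000382), and by 0.26 after centring, which did not pass (adjusted p = 0.183). With Cd 2 of 4 members passed as deposited, against 73.2% of all probe sets, 61.7% higher in root and 11.5% lower.

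**Figure D3:**
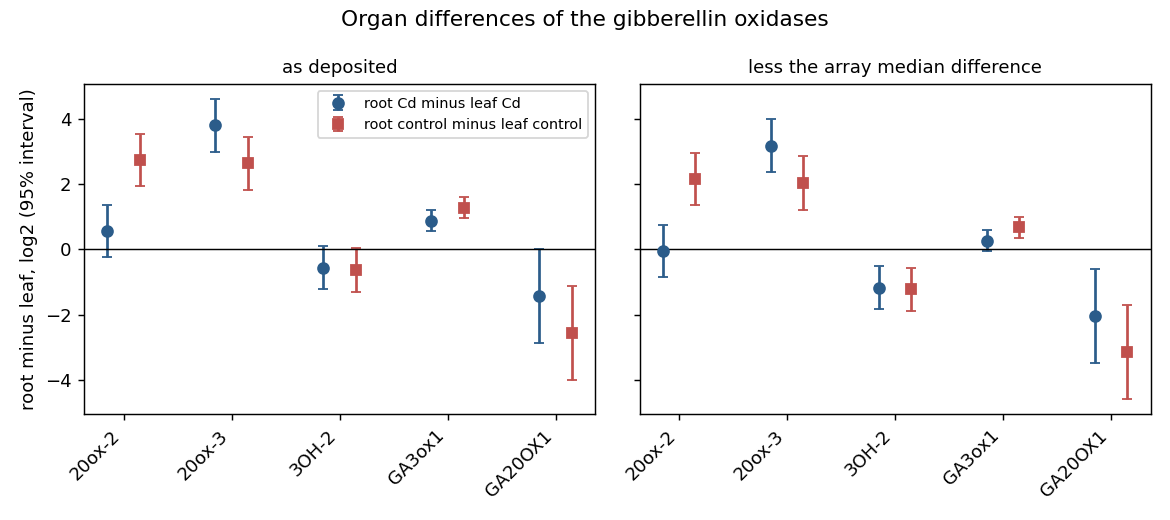
Root minus leaf on the log2 scale (y axis) for the 4 members and GA20OX1 (x axis), with Cd (circles) and without (squares), as deposited (left) and less the difference of array medians (right); bars are 95% confidence intervals of the fit. 20ox-2 stands at 0.56 with Cd and 2.75 without, and GA20OX1 and 3OH-2 lie below 0 in both panels.

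Ordered by level as deposited, 20ox-2 ran from root control (5.48) through root Cd (5.19) and leaf Cd (4.63) to leaf control (2.73), of which only the last step passed. 20ox-3 ran from root Cd (6.24) and root control (6.04), which did not differ beyond their spread, through a step that passed to leaf control (3.40) and leaf Cd (2.43), which did not pass either. 3OH-2 ran from leaf control (7.89) and root control (7.25) to leaf Cd (6.14) and root Cd (5.58), and neither organ step passed as deposited, while root control and leaf Cd were not tested against each other. GA3ox1 ran from root control (4.17) to root Cd (3.72), leaf control (2.89) and leaf Cd (2.84), and neither Cd step passed.

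Few other genes of the pathway carried a symbol. Of 2 further synthesis genes, GA20OX1 is given above, and CPS, the copalyl diphosphate synthase of the first committed step, was at background on all 12 arrays. Of 2 signalling genes, 0 passed with Cd in either organ in limma or the unmoderated model, and 0 had an unadjusted p under 0.05. GAI, the tomato DELLA repressor PROCERA, was 5.24 ± 0.23 in root Cd and 5.61 ± 0.31 in root control, and 4.85 ± 0.39 in leaf Cd and 5.11 ± 0.07 in leaf control. SPY, a sugar transferase that restrains gibberellin signalling, differed by -0.19 in root and -0.11 in leaf. The inactivating 2-oxidases and the GID1 receptors were searched for by symbol and synonym without a match, so they were not analysed here.

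Among 3 genes listed as gibberellin-responsive 0 passed with Cd in either organ in limma or the unmoderated model, and 0 had an unadjusted p under 0.05. Their response to gibberellin was not tested here. The endo-mannanase MAN2, known from germinating seeds, was at background on all 12 arrays. The expansin EXPA8, a cell wall loosening protein, was at background in leaves and differed by 0.0035 in root, with a sign that turned with the scaling. RSI-1, a small secreted peptide of the GAST1 family, is also counted among the root markers and alone of these genes was above background in leaves. It read 4.82, 5.12 and 5.37 in leaf Cd, against 4.66, 6.72 and 7.87 in leaf control, where leaf-ck 1 was again as low as the Cd arrays. Its leaf difference was -1.31 (adjusted p = 0.282), and it was -2.19 without leaf-ck 1, which passed (adjusted p = 0.0156), and -0.58 without leaf-ck 3, which did not (adjusted p = 0.675).

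Some KNOTTED1-like homeobox (KNOX) proteins keep meristem cells undetermined, and in tobacco one of them represses a 20-oxidase gene. Of the 5 KNOX genes measured, 0 passed with Cd in either organ in limma or the unmoderated model, with KN1 in leaf the only one at an unadjusted p under 0.05 (0.0196), and with a median difference of 0.35 in root and -0.80 in leaf. KN1 (synonym TKN1) read 2.17, 2.47 and 2.38 in leaf Cd, all at background, against 2.13, 5.56 and 5.90 in leaf control, a bound of at least 3.19-fold lower with Cd that did not pass (adjusted p = 0.167). KN4 read 2.85, 2.60 and 3.18 in leaf Cd, against 2.47, 4.61 and 5.02 in leaf control, a difference of -1.15 (adjusted p = 0.289). TKN3 read 2.78, 2.57 and 2.90 in leaf Cd, against 2.62, 3.77 and 4.24 in leaf control, a difference of -0.80 (adjusted p = 0.284). On both, leaf-ck 1 was at background and the other leaf controls were above it. T6 (synonym LeT6), a leaf and meristem KNOX gene at background in roots, read 4.23, 4.97 and 4.06 in leaf Cd, against 3.66, 5.59 and 6.31 in leaf control, a difference of -0.77 (adjusted p = 0.472). Leaf-ck 1 thus stood with the Cd arrays for these 4 genes as for 20ox-3, and the leaf differences depended on which control array was left out. Without leaf-ck 1 those of KN4 (-1.93, adjusted p = 0.0165) and T6 (-1.53, adjusted p = 0.0190) passed and that of TKN3 (-1.26, adjusted p = 0.0569) did not, while KN1 was at least 7.32-fold lower with Cd (adjusted p = 0.00237). Without leaf-ck 3 none of the 4 passed, at -0.66 for KN4, -0.21 for T6 and -0.45 for TKN3, with an adjusted p of 0.431 for KN1. T12, the other member of the list, differed by -0.07 in leaf. In roots KN1 read 7.23, 8.14 and 7.26 with Cd, against 6.49, 5.71 and 7.08 without, a difference of 1.12 (adjusted p = 0.562) between groups that did not overlap, as in 13.5% of all probe sets with root Cd higher.

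**Figure D4:**
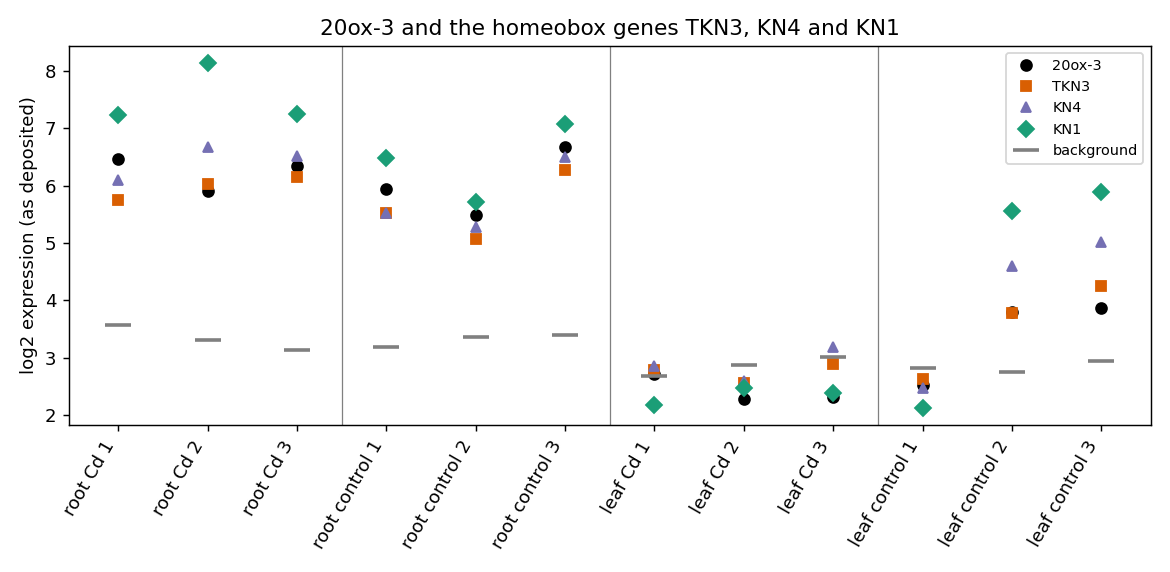
Log2 expression (y axis) of 20ox-3 and the KNOX genes TKN3, KN4 and KN1 on the 12 arrays (x axis); symbols are single arrays and grey bars the background of each array. The 4 genes are high in all 6 root arrays and above background together on leaf control 2 and leaf control 3, but not on leaf control 1.

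Pattern likeness was measured as Pearson's r over the 12 arrays against 800 other genes with a symbol, as a description, since the arrays share organ and treatment. The 3 genes most like 20ox-3 were TKN3 (r = 0.99), AN35 (0.97) and TIP (0.96), and with the organ means taken off they were TKN3 (0.91), KN4 (0.87) and KN1 (0.85), which are all KNOX genes. Within the 6 leaf arrays 20ox-3 correlated with TKN3, KN4 and KN1 at 0.95, 0.94 and 0.96, and within the 6 root arrays at 0.80, 0.64 and 0.46. Of the other KNOX genes, T6 gave 0.82 in leaf and -0.13 in root, where it was at background. T12 gave 0.11 in leaf and -0.03 in root. RSI-1, which is not a KNOX gene, gave 0.89 in leaf and -0.24 in root. Among leaf arrays 20ox-3, TKN3, KN4 and KN1 were high on leaf-ck 2 and leaf-ck 3 alone.

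20ox-2 was most like ACO5 (r = 0.95), LOC544070 (0.93) and ERF2 (0.92). ACO5, an ACC oxidase of ethylene synthesis from the same dioxygenase superfamily, was also first with the organ means taken off (0.91), followed by Rab1C (0.89) and LOC543598 (0.88). It was high in all root arrays (11.31 to 12.42 with Cd and 11.39 to 12.31 without), was at background in the 3 leaf controls (2.55 to 2.65), where 20ox-2 was above it on 1, and read 7.80, 9.08 and 8.58 in leaf Cd, at least 50.2-fold higher (adjusted p = 2.99e-05). Leaf-Cd 2 was the highest and leaf-Cd 1 the lowest leaf-Cd array for both genes, and also for 3OH-2, which was lower with Cd. ACO5 was picked by its likeness over these same arrays, so the shared order adds nothing to that likeness. Of the 4 superfamily relatives with a symbol, ACO5 rose in leaf and ACO6 fell in root, and the other two, ACO4 and E8, passed in neither Cd comparison. Of the 8 root markers, LKT1 rose in leaf and 3 had an unadjusted p under 0.05, namely LKT1, PT1 (0.73, adjusted p = 0.0975) and FER, which was above background on 1 leaf-Cd array and on 0 leaf controls. PT2 and ext1 were at background in both leaf groups. The summed root markers were 10.73 to 11.33 in leaf Cd, against 10.32 to 10.80 in leaf control. PT1 was the brightest gene of that sum, with means of 10.57 in leaf Cd and 9.83 in leaf control. RSI-1 (5.10 in leaf Cd and 6.42 in leaf control), AMT1-2 (7.60 and 7.93) and FRO1 (7.67 and 7.69) averaged lower with Cd. The part of root markers in the leaf rise of 20ox-2 was not tested.

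3OH-2 was most like CO1 (r = 0.90), MFP1 (0.83) and LCY1 (0.82), and with organ means taken off CIP1 (0.89), CO1 (0.89) and LOX1.1 (0.89). CO1 belongs to the CONSTANS family of transcription factors, LCY1 is a lycopene cyclase and LOX1.1 a lipoxygenase. GA20OX1 correlated with 3OH-2 at 0.94 over the 6 root arrays and 0.86 over the 6 leaf arrays. Both genes were lower with Cd in each organ, so each r includes the step between Cd and control. From leaf-ck 1 to leaf-ck 3, 3OH-2 rose (7.48, 8.04 and 8.14) while GA20OX1 fell (7.74, 7.71 and 7.11). In the root controls both rose in that order. GA3ox1 was most like TFT9, TPX2 and XTH6 (0.96 each), and with organ means taken off rem-2 (0.85), CPN21 (0.81) and NCED1 (0.80), an enzyme of abscisic acid synthesis. Between members the organ-centred r ran from -0.50 for 20ox-2 with 20ox-3 to 0.64 for 3OH-2 with GA3ox1.

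Light signalling and the cell cycle, both linked to gibberellin synthesis or response in other plants, were set beside the members. HY5 and CIP1 fell in both organs among 7 light receptor and light signalling genes, and the other 5 passed in neither (median difference -0.21 in root and -0.27 in leaf). Of all probe sets, 1.96% passed as lower in root, 1.54% in leaf and 0.269% in both. Of 7 cyclin and cyclin-dependent kinase genes 0 passed in root or leaf in limma or the unmoderated model (unadjusted p under 0.05 for 0 in root and 2 in leaf), with median differences of 0.40 in root and -0.67 in leaf.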

How the data were processed

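What the authors deposited is a log2 value for each probe set and array. MAS5 and RMA are named, per the submitters' processing notes, without version or role, and the log base was inferred from the range of the values. Of 10209 probe sets, 171 control probe sets were left out. Names came from the array's probe-to-gene table (909 probe sets, 885 matched to the current gene table). A gene of a list with several probe sets was given by the one with the highest mean.

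Group means were fitted with limma 3.58.1 (R 4.3.3) over the 12 arrays (prior degrees of freedom 2.84, residual 8), with two-sided p-values adjusted over 10038 probe sets by Benjamini-Hochberg and a threshold of 0.05. The fit was tested on simulated data. Figures used Python 3.11.15 and matplotlib 3.10.9. Named are all members and all matched genes of the gibberellin and KNOX lists. Other lists are given by counts, and for each member the 3 most alike genes are named. Members and lists were chosen with earlier results of these data known. Precision is limited by the number of arrays.

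Deviations from group means were correlated between same-numbered Cd and control arrays. The r was 0.005, -0.26 and 0.06 in root and 0.35, 0.42 and 0.12 in leaf. All the leaf values and none of the root values exceeded the limit of 0.1. Differently numbered arrays were not correlated in this way, so these values do not show that the arrays were paired. The main fit had no replicate block, and a fit with one is given below.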

Additional observations from a re-analysis of the deposited data

How the results depend on the processing

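Over 10 other settings and with each of the 12 arrays left out, 363 of 396 values of the members kept direction and side of the threshold, 10 lost the call, 13 gained it and 10 turned sign, none of the last with a call. The causes of these changes were not tested. Many of the values could not change direction, so the total does not measure robustness. Leaving out an array outside the groups compared returns the same difference. So do the trend, filter, block, unmoderated and single-organ fits, which change only the p-values. For median centring and quantile normalization over all arrays, 3OH-2 gained the organ call without Cd (-1.23 and -1.22) and with Cd (-1.17 and -1.24), GA3ox1 lost it with Cd (0.26 and 0.23), and 20ox-2 with Cd turned (-0.052 and -0.20). Quantile normalization also turned the difference between the 3OH-2 responses (-0.023). The leaf arrays alone left 20ox-2 at 1.90 and 3OH-2 at -1.74 without a call, as the unmoderated model did for 3OH-2 in root (-1.67) and 20ox-2 in leaf (1.90). Array weights gave calls to GA3ox1 in root (-0.41), to the 20ox-2 difference between responses (-1.93) and to 3OH-2 without Cd (-0.89).

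Leaving out 1 array gave ranges of -0.54 to 0.093 for 20ox-2 in root and 1.60 to 2.13 in leaf, and of 0.31 to 0.94 between organs with Cd. For 20ox-3 they were -0.072 to 0.52 in root and -1.40 to -0.73 in leaf, and for GA3ox1 -0.12 to 0.061 in leaf. For 3OH-2 they were -1.86 to -1.53 in root, -2.04 to -1.42 in leaf, -0.24 to 0.37 between responses, -0.84 to -0.50 between organs without Cd and -0.88 to -0.27 with Cd.

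Counts of probe sets past the threshold moved more. Root (304) gave 202 with its arrays alone, 3745 with array weights, 114 unmoderated and 85 to 409 with 1 array left out, the lowest without root-Cd 1. Leaf (379) gave 65 alone and 127 (without leaf-ck 2) to 589 (without leaf-Cd 3). The difference between responses (76) gave 705 with array weights, 43 unmoderated and 26 (without leaf-ck 3) to 160 (without leaf-Cd 3). The organ difference without Cd (7118) gave 4343 centred and 4251 after quantile normalization, and with Cd (7346) 4612 (2184 higher, 2428 lower) and 4465. With the replicate block 421 passed in root and 376 in leaf, 20ox-2 in leaf (adjusted p = 0.0285) and 3OH-2 in leaf (adjusted p = 0.0164) and root (adjusted p = 0.0222) kept their calls, and it changed no other call of a member. The block across organs, used for the organ differences, was added after the data were seen. Each member has 1 probe set, so the planned comparison of probe sets was not run.

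Small differences of other genes turned sign: EXPA8 in root (-0.00071 centred, -0.019 and -0.014 after quantile normalization over all arrays and within organs, -0.0083 with array weights, -0.50 to 0.33 with 1 array left out), GAI without Cd between organs (-0.092 centred, -0.18 after quantile normalization), RSI-1 in root (-0.023 with array weights, -0.047 to 0.50), SPY (0.17, -0.36 to 0.29) and T12 (0.27, -0.36 to 0.40) in leaf, and T12 in root (-0.083 to 0.14). Signal near background limits GA3ox1 and the leaf values of 20ox-3.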
